A study of Drosophila melanogaster with 6 samples.

Results

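Respiratory complex I, the NADH dehydrogenase of mitochondria, was followed through the transcripts of its nuclear genes in oviducts of the fly Drosophila melanogaster. In this species the genes carry symbols that begin with ND-. A gene was included when a probe set annotated to it alone was on the array, and where it had several, the brightest by mean log2 intensity over the 6 arrays stood for it. Of 40 such genes in the RefSeq table, 31 met the rule, out of 10844 genes with a probe set of their own. The 31 are 26 subunits and 5 paralogues, which are second copies of a subunit gene whose symbols end in L, or in L and a number. Another 9 were not analysed here, among them the core subunit genes ND-49, ND-30, ND-23 and ND-24, and ND-13B, whose only probe set was shared with CG33493.

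Transcripts were measured on 3 Affymetrix arrays of oviducts from mated females and on 3 arrays of oviducts from unmated females. Females of both groups were aged 3 days, per the labels, and were kept at 23 ± 2 degrees Celsius with a light and a dark phase of 12 h each; the mated ones were dissected 3 h after mating had ended, and the unmated ones in parallel. Oviducts of 400 to 500 females were pooled, and whether each array had a pool of its own is not stated. The p-values therefore rest on the spread between these arrays, which may be technical. They also rest on a variance that limma shares over all probe sets. The fly strain is not given in the sources used here.

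Complex I takes electrons from NADH, hands them to ubiquinone and pumps protons out of the mitochondrial matrix, and it is the entry point of most electrons into the respiratory chain. It is shaped like an L. A matrix arm holds the flavin and the iron-sulfur clusters, and a membrane arm holds the proton pumps, whose core subunits are encoded in mitochondrial DNA; a ring of accessory subunits, encoded in the nucleus, stabilises both arms. The oviduct is a tube of secretory epithelium wrapped in muscle, and muscle is rich in mitochondria.

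The deposited scaling was kept, and all values below are intensities on a linear scale or differences of their log2 values. The arrays were not alike beyond the mating state. The median intensity over all probe sets was 60.6 to 66.5 on the mated arrays, against 86.2, 86.0 and 62.4 on unmated arrays 1, 2 and 3. The 18S rRNA control probe sets averaged 169.2 to 464.3 on the mated arrays, against 1005.1, 806.2 and 223.5 on unmated arrays 1, 2 and 3. The hybridisation spike-in controls averaged 1772.1 to 2207.4 on the mated arrays, against 1363.1, 1161.5 and 2160.5 on the unmated arrays. Unmated arrays 1 and 2 therefore stood apart, with high 18S and low spike-in values; the part of this in the complex I values was not tested. The differences of the genes described in full, and the medians of the gene lists, are also given against unmated array 3 alone. The tissue was checked by markers. The 10 muscle markers measured summed to intensities of 79835.2 to 103448.8 on the mated arrays, against 73692.7 to 101439.2 on the unmated arrays. Of 4 oviduct markers listed, 3 were measured, with a median log2 difference of 0.54 relative to all genes, or 0.52 against unmated array 3 alone. In 2 of the 3 all mated values lay above all unmated values, where 2.33% of all probe sets did. This short list was chosen with earlier results of these data known. The matrix protease gene Mmp2 had 75.5, 53.0 and 66.5 on the mated arrays, against 22.9, 26.4 and 26.1 on the unmated arrays (log2 difference 1.36 ± 0.31, SE, limma adjusted p 0.621). The gene pio had 6749.8 to 8444.7 on the mated arrays, against 5204.9 to 6505.0 on the unmated arrays. The octopamine receptor gene Octbeta2R, which acts in the oviduct, overlapped between the groups, with intensities of 653.0, 242.9 and 378.6 on the mated arrays, against 318.0, 245.9 and 405.3 on the unmated arrays, and the junction gene cora had 1612.1 to 1742.6 on the mated arrays, against 1304.6 to 2226.8 on the unmated arrays. The receptor gene Oamb was not analysed here. In such bulk tissue, fewer cells of a type and less RNA per cell cannot be told apart.

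The comparison asked whether complex I transcripts of the oviduct differ after mating. No complex I gene passed the test. Of the 31 genes, 0 were higher and 0 lower in mated oviducts at an adjusted p of 0.05 (limma, Benjamini-Hochberg over 13966 probe sets), where 0% of all probe sets were called, and their adjusted p ran from 0.806 to 0.991. At an unadjusted p of 0.05 the count was again 0 of 31, against 6.59% of all probe sets (1.04% with a higher and 5.56% with a lower mean after mating). Most complex I genes were brighter than the median gene by mean log2 intensity. Among the 5422 genes above that median level, 18 were higher and 81 lower at the same threshold. Log2 differences, mated minus unmated, ran from -1.14 to 0.74, and for all subunits other than ND-B8 from -0.35 to 0.48. The core subunits ND-51 and ND-75 were the genes whose 3 mated values lay above all 3 unmated values. These 2 are 6.45% of the 31 genes, against 2.33% of all probe sets. No complex I gene had all mated values below all unmated values, where 8.59% of probe sets did. Of the 5422 genes above the median level, 163 were separated upward and 290 downward in this way.

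**Figure D1:**
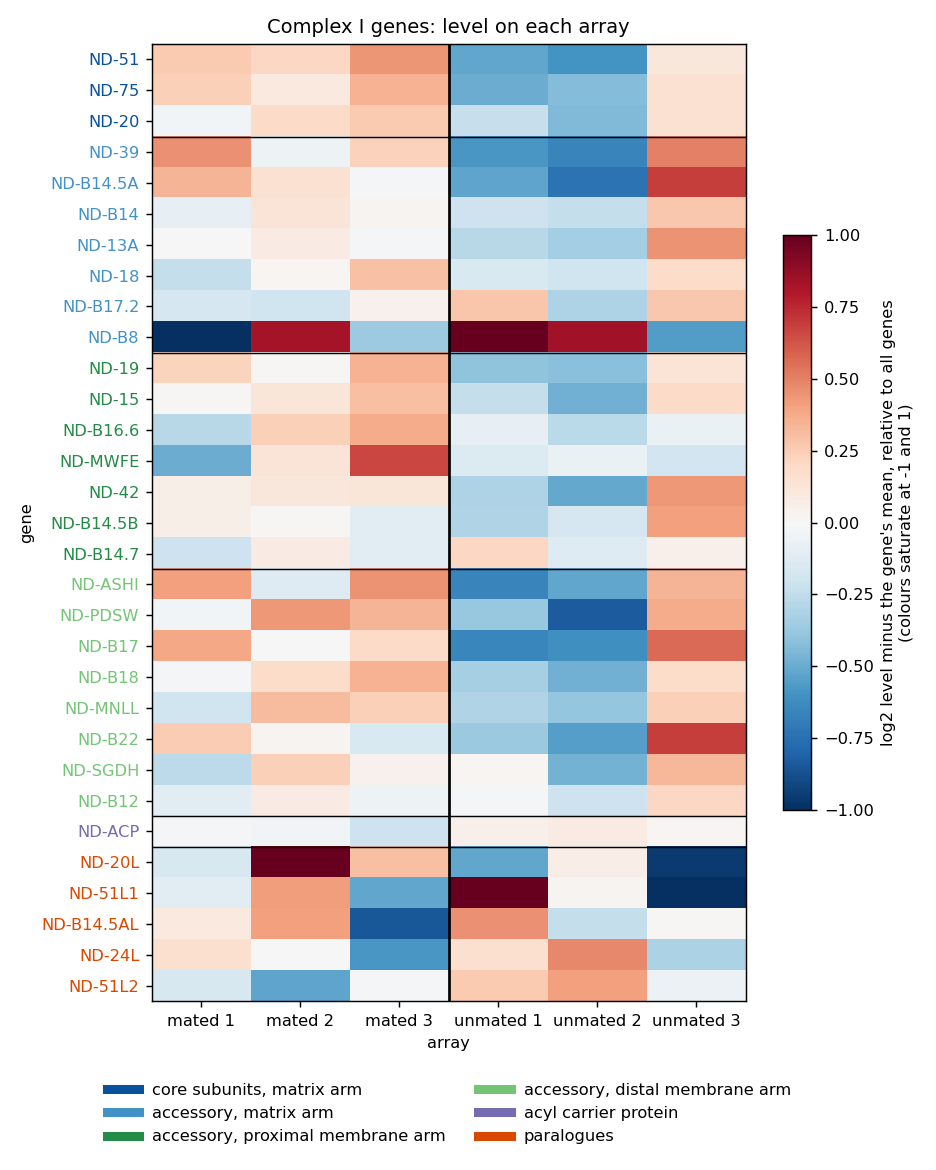
Level of the 31 complex I genes (rows, coloured by role) on the 3 mated and 3 unmated arrays (columns), as log2 intensity minus the gene's mean over the arrays and minus the median of all genes on that array. Unmated arrays 1 and 2 are blue in most subunits, unmated array 3 is red in 23 of 26, and the paralogues at the bottom do not follow this order.

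Among the core subunits of the matrix arm, 3 of 7 were measured, and all 3 had a higher mean in mated than in unmated oviducts. ND-51, the fly NDUFV1, binds NADH and the flavin that takes its electrons. Its intensity was 3147.5, 3140.2 and 3423.9 on mated arrays 1, 2 and 3, against 2168.8, 2089.3 and 2749.6 on unmated arrays 1, 2 and 3. The groups did not overlap, and unmated array 3 was the nearest of the unmated arrays to the mated ones. The means were 3237.2 ± 161.7 in mated and 2335.9 ± 360.5 in unmated oviducts (SD, n = 3 each). On the log2 scale this is a difference of 0.48 ± 0.30 (SE, limma adjusted p 0.826). ND-75, the fly NDUFS1, is the largest subunit and carries iron-sulfur clusters along the electron path. It stood at 1977.1, 1856.3 and 2055.1 on the mated arrays, against 1410.3, 1506.5 and 1815.4 on the unmated arrays. Here too the groups did not overlap, but the lowest mated value and unmated array 3 lay close together. The log2 difference of ND-75 was 0.32 ± 0.30 (SE, limma adjusted p 0.906).

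ND-20, the fly NDUFS7, holds the last iron-sulfur cluster before ubiquinone. It had intensities of 3204.7, 3858.2 and 3782.3 on the mated arrays, against 3326.0, 2928.0 and 3549.1 on the unmated arrays. The groups overlapped, with mated array 1 below unmated arrays 1 and 3, and the log2 difference was 0.15 ± 0.30 (SE, limma adjusted p 0.963). Against unmated array 3 alone, the mated mean differed by 0.23 for ND-51, 0.11 for ND-75 and 0.02 for ND-20 on the log2 scale, against 0.60, 0.43 and 0.21 when set against unmated arrays 1 and 2. After quantile normalization, and after cyclic loess, ND-51 and ND-75 were again the 2 genes with all mated values above all unmated values, where 4.35% and 4.46% of probe sets were. Both settings also put all mated values of ND-B14.5B and ND-51L2 below all unmated values, where 5.98% and 5.75% of probe sets were.

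**Figure D2:**
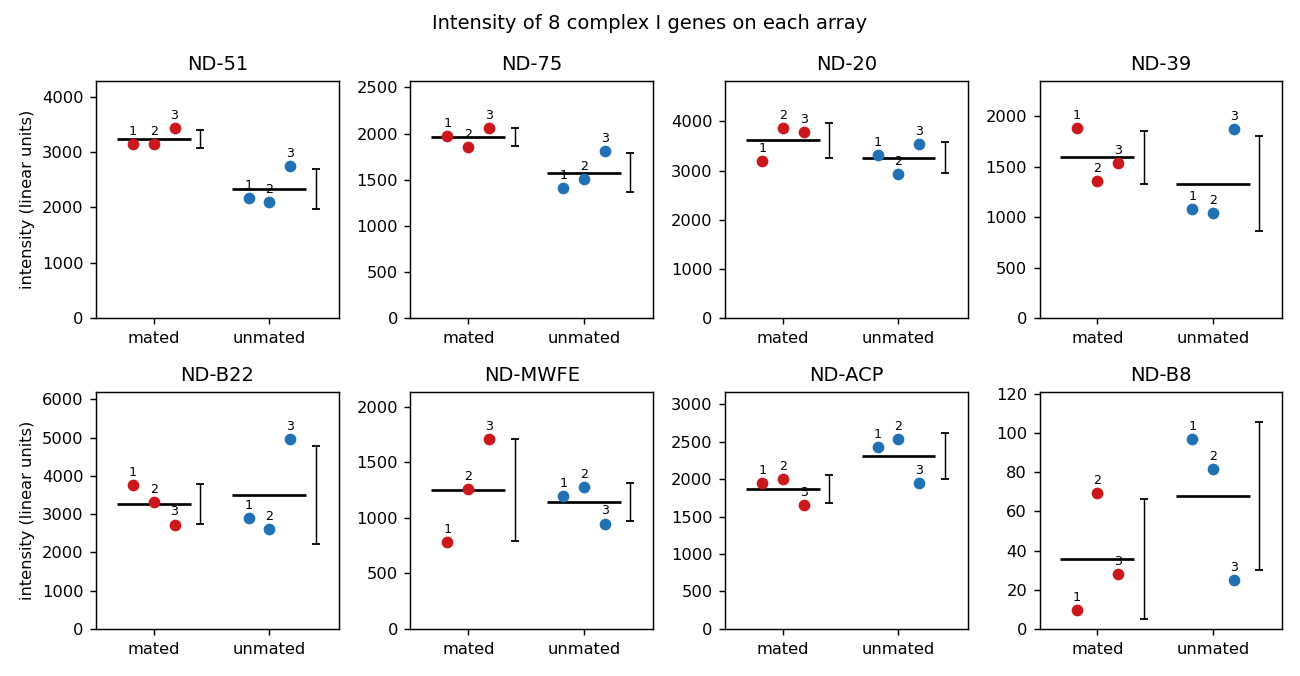
Intensity (linear units, axis from 0) of 8 complex I genes; each point is an array, marked with its number, the line is the group mean and the bar beside it 1 SD (n = 3). For ND-51 and ND-75 the mated points lie above all unmated points; in ND-39 and ND-B22 unmated array 3 lies far above unmated arrays 1 and 2, and in ND-ACP it lies below them.

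The 7 measured accessory subunits of the matrix arm, of 8 listed, had log2 differences from -1.14 to 0.30. ND-39, the fly NDUFA9, sits where the matrix arm meets the membrane arm, near the ubiquinone site. It had intensities of 1877.1, 1361.6 and 1536.6 on the mated arrays, against 1076.4, 1042.6 and 1872.0 on unmated arrays 1, 2 and 3. All mated values lay above unmated arrays 1 and 2, while unmated array 3 was level with mated array 1. The log2 difference of ND-39 was 0.30 ± 0.37 (SE, limma adjusted p 0.938), and it was -0.25 against unmated array 3 alone. ND-B14.5A, the fly NDUFA7, also had its highest unmated value on array 3, with 2412.8, 2176.3 and 1815.3 on the mated arrays, against 1560.6, 1380.6 and 2994.4 on the unmated arrays. Its value on unmated array 3 was 2.04 times the mean of unmated arrays 1 and 2, the highest such ratio among the 31 genes, and its log2 difference was 0.19 with all arrays and -0.50 against that array alone.

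ND-B17.2, the fly NDUFA12, had intensities of 331.6, 337.0 and 371.1 on the mated arrays, against 538.4, 364.5 and 438.2 on the unmated arrays. The overlap came from mated array 3 and unmated array 2, and the log2 difference was -0.35 ± 0.32 (SE, limma adjusted p 0.898). This difference was as large against unmated arrays 1 and 2 (-0.36) as against unmated array 3 (-0.34). ND-B8, the fly NDUFA2, had 9.5, 69.2 and 28.1 on the mated arrays, against 96.9, 81.6 and 24.9 on the unmated arrays. Both groups were spread widely, mated array 1 lay under 14.2, the lowest lower quartile of any array, and ND-B8 was the only complex I gene with a value in that dim range. Its log2 difference was -1.14 ± 0.82 (SE, limma adjusted p 0.846) with all arrays and 0.09 against unmated array 3 alone; it was -0.40 without mated array 1 and -1.83 without mated array 2. The other members of this group are ND-18, the fly NDUFS4, ND-13A, the zinc-binding NDUFS6, and ND-B14, an LYR protein that binds an acyl carrier protein. Their log2 differences were -0.09, -0.09 and -0.07. ND-18 had 185.4, 229.1 and 257.6 on the mated arrays, against 235.0, 231.3 and 242.3 on the unmated arrays, and its 3 unmated values were the most alike of any complex I gene (SD 0.03 on the log2 scale). Its difference against unmated array 3 alone was -0.13.

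In the proximal membrane arm, 7 of 7 listed accessory subunits were measured, with log2 differences from -0.29 to 0.26 and adjusted p from 0.924 to 0.985 in limma. ND-19, the fly NDUFA8, which faces the intermembrane space and is held by disulfide bonds, had intensities of 1336.4, 1201.5 and 1413.1 on the mated arrays, against 1033.8, 1044.3 and 1235.1 on the unmated arrays. The groups overlapped only through mated array 2 and unmated array 3, and the log2 difference was 0.26 ± 0.30 (SE), or 0.09 against unmated array 3 alone. ND-42, the fly NDUFA10, a relative of nucleoside kinases, had 3380.7, 3620.5 and 3399.9 on the mated arrays, against 3106.8, 2750.1 and 4253.4 on the unmated arrays. The mated values of ND-42 were the most alike of any complex I gene (SD 0.05 on the log2 scale), and they lay between the unmated arrays. Its log2 difference was 0.07 with all arrays and -0.30 against unmated array 3 alone. ND-MWFE, the fly NDUFA1, had the reverse spread, with 784.9, 1259.7 and 1708.6 on the mated arrays, against 1195.0, 1281.1 and 949.1 on the unmated arrays, and a log2 difference of 0.07 with all arrays and 0.33 against unmated array 3 alone. ND-B16.6, the fly NDUFA13, and ND-15, the fly NDUFS5, had log2 differences of 0.09 and 0.15, and ND-B14.5B and ND-B14.7, the fly NDUFC2 and NDUFA11, had -0.16 and -0.29.

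In the distal membrane arm, 8 of 10 listed accessory subunits were measured, and their log2 differences ran from -0.18 to 0.36. ND-ASHI, the fly NDUFB8, had intensities of 1957.6, 1393.1 and 1937.2 on the mated arrays, against 1100.7, 1236.9 and 1817.2 on the unmated arrays. ND-PDSW, the fly NDUFB10, had 1530.4, 2170.0 and 1906.2 on the mated arrays, against 1422.4, 1064.5 and 1969.9 on the unmated arrays. In both genes all mated values lay above unmated arrays 1 and 2, and unmated array 3 lay within the mated values. Their log2 differences were 0.36 ± 0.35 and 0.36 ± 0.36 (SE, limma adjusted p 0.906 and 0.915), and against unmated array 3 alone they were -0.06 and -0.09. ND-B22, the fly NDUFB9 and another LYR protein, had 3755.1, 3327.7 and 2729.8 on the mated arrays, against 2902.3, 2608.3 and 4961.2 on the unmated arrays, so that its 2 extreme values were both unmated. Its log2 difference was -0.05 with all arrays and -0.61 against unmated array 3 alone. ND-B17, ND-B18 and ND-MNLL had log2 differences of 0.26, 0.22 and 0.10, and ND-SGDH and ND-B12 had -0.12 and -0.18. ND-MNLL is the only gene with 2 probe sets. The brighter one carries the suffix Affymetrix uses for probes shared between transcripts, and the other gave 0.33 ± 0.33 (SE) in place of 0.10 ± 0.32. NP15.6, the fly NDUFB11, is a subunit of the same arm whose symbol falls outside the rule; chosen after its values were seen, it had 1993.8, 2986.1 and 2158.5 on the mated arrays, against 2451.7, 2616.7 and 3296.7 on the unmated arrays.

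ND-ACP, the mitochondrial acyl carrier protein, serves both complex I and the synthesis of fatty acids in mitochondria. It had intensities of 1941.8, 2007.4 and 1651.3 on the mated arrays, against 2433.0, 2533.0 and 1953.1 on the unmated arrays. Among the 26 subunits, ND-ACP was one of 7 whose highest unmated value was not on unmated array 3. The groups overlapped through mated array 2 and unmated array 3 alone, and the log2 difference was -0.30 ± 0.31 (SE, limma adjusted p 0.918), or -0.42 against unmated arrays 1 and 2 and -0.07 against unmated array 3.

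The 5 measured paralogues, of 6 listed, had lower means in mated oviducts in 4 cases and a higher mean in 1. The median difference of all genes was also below 0, at -0.16. The values of the paralogues ran from 25.1 to 275.7 over all arrays, with none under 14.2. ND-51L2, a copy of ND-51, had 95.6, 76.5 and 101.3 on the mated arrays, against 151.4, 172.3 and 100 on the unmated arrays. Mated array 3 and unmated array 3 were nearly level there, and the log2 difference of -0.61 ± 0.35 (SE, limma adjusted p 0.806) had the smallest p of the 31 genes. The sign was opposite to that of ND-51 itself; the difference between the 2 genes was not tested. ND-51L1, the other copy, had 63.4, 94.4 and 45.7 on the mated arrays, against 172.2, 84.6 and 33.0 on the unmated arrays, a spread among unmated arrays of 1.20 (SD of log2 values). ND-20L, a copy of ND-20, had 44.6, 115.8 and 59.2 on the mated arrays, against 41.4, 63.7 and 25.1 on the unmated arrays, with a log2 difference of 0.74 ± 0.51 (SE, limma adjusted p 0.839). ND-24L had 101.9, 94.5 and 59.0 on the mated arrays, against 120.8, 154.2 and 71.3 on the unmated arrays. ND-B14.5AL had 181.8, 232.1 and 90.5 on the mated arrays, against 275.7, 173.8 and 166.6 on the unmated arrays. The log2 differences of these 2 genes were -0.41 ± 0.42 and -0.35 ± 0.45 (SE, limma adjusted p 0.918 and 0.942). Against unmated array 3 alone the differences of ND-51L2 and ND-B14.5AL were -0.14 and -0.09, and those of ND-51L1, ND-24L and ND-20L were 0.98, 0.22 and 1.42. Single arrays moved them as well, with ND-20L at 0.35 without mated array 2 and ND-24L at -0.16 without mated array 3. In the paralogues unmated array 3 was the highest unmated array in 0 of 5 genes, and in the subunits it was in 19 of 26. Over all genes it was the highest unmated array in 25.4%, and over the genes above the median level in 34.3%, so the share varied with level. The paralogues were also dimmer than most subunits, which ran from 185.4 to 5589.9 without ND-B8. The difference between paralogues and subunits, and the part of level in it, were not tested.

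**Figure D3:**
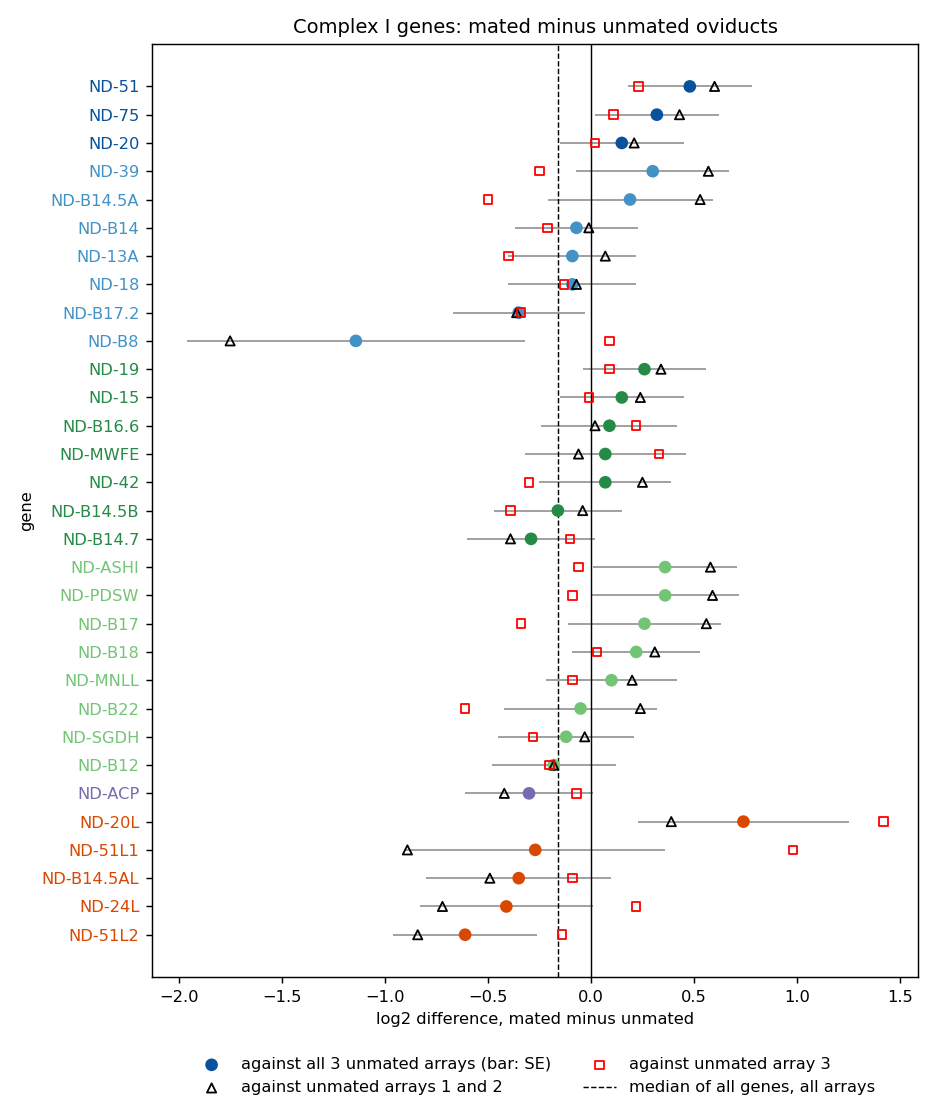
Log2 difference, mated minus unmated, of each complex I gene (rows by role): filled points use all 3 unmated arrays with the SE as a bar, open triangles unmated arrays 1 and 2, and open red squares unmated array 3. The dashed line is the median of all genes, -0.16; in most subunits the triangle lies right of the square, and in all 5 paralogues it lies left of it.

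As a group, the complex I genes had a median slightly above the median of all genes. Their median log2 difference was 0.07, against -0.16 for all 10844 genes, or 0.22 relative to them, and 21 of the 31 lay above and 10 below that median, which splits all genes evenly. For the 26 subunits without the paralogues the median was 0.08 and 20 lay above. Brighter genes as a class lay above the median too. The 5422 genes above the median level also had a median of 0.13 relative to all genes, and 3454 of them lay above the all-gene median. With only probe sets above the median level kept, 29 complex I genes remained. Their median was 0.11 relative to all genes kept, with 14 of the 29 below the median of the genes kept. The scaling changed the sign. After quantile normalization the relative median was -0.01, with 16 of 31 genes below the all-gene median, and after cyclic loess it was -0.02, with 18 below. No direction can therefore be given for the group.

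The offset also rested on 2 arrays. The level of the 26 subunits, centred on each gene's mean and on all genes of the array, was -0.02, 0.10 and 0.21 on mated arrays 1, 2 and 3, against -0.29, -0.43 and 0.23 on unmated arrays 1, 2 and 3. Unmated array 3 was thus level with mated array 3, and unmated arrays 1 and 2 lay below all mated arrays. With unmated arrays 1 and 2 left out, so that 3 mated arrays stood against 1 unmated array assumed to vary like them, the relative median of the 31 genes was -0.10, with 20 below the all-gene median. Unmated array 3 held the highest unmated value in 73.1% of the subunits, and in 34.3% of all genes above the median level. After quantile normalization these shares were 57.7% and 42.3%, and the subunit levels were -0.11, 0.06 and 0.04 on the mated arrays, against 0.02, -0.13 and 0.12 on the unmated arrays.

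**Figure D4:**
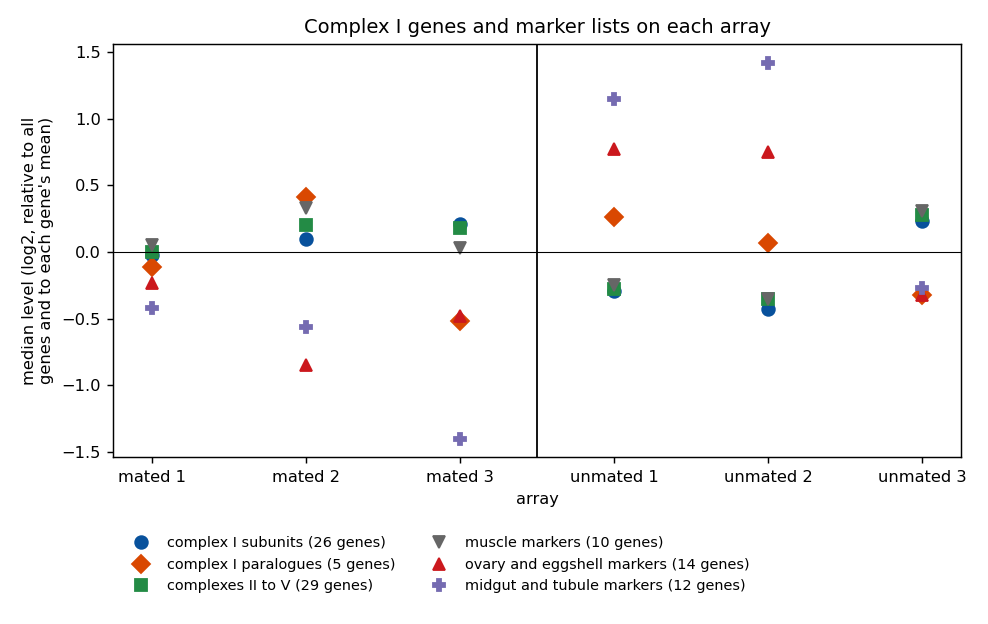
Median level of gene lists on each array (log2, centred on each gene's mean and on all genes of the array), with 1 symbol per list. The complex I subunits, complexes II to V and the muscle markers lie low on unmated arrays 1 and 2, where the markers of ovary and gut lie between 0.75 and 1.42.

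As lists, by their median level, markers of ovary and gut were high on unmated arrays 1 and 2, where the complex I subunits were low. The level of 14 ovary and eggshell markers was -0.23, -0.85 and -0.48 on the mated arrays, against 0.77, 0.75 and -0.32 on unmated arrays 1, 2 and 3, and 13 of the 14 lay below the all-gene median in the comparison. Their summed intensity ran from 9762.8 to 19418.3 on the mated arrays and from 17156.5 to 38704.7 on the unmated arrays. Not every ovary marker followed this order. Vm26Aa had 1500.0 on mated array 1, against 928.4 and 716.1 on unmated arrays 1 and 2. On the same arrays Vm32E had 1251.5, against 527.6 and 561.2. The dim gene bam was highest on mated array 2, at 14.8. The level of 12 midgut and Malpighian tubule markers was -0.42, -0.56 and -1.40 on the mated arrays, against 1.15, 1.42 and -0.27 on the unmated arrays, with 12 of 12 below the median. Their summed intensity ran from 474.1 to 1070.3 on the mated arrays and from 821.1 to 4534.4 on the unmated arrays. The 10 muscle markers had levels of 0.05, 0.33 and 0.03 on the mated arrays, against -0.25, -0.35 and 0.31 on the unmated arrays, and as in the complex I subunits unmated arrays 1 and 2 were the lowest. By their mean over the 6 arrays, the brightest muscle genes were Mlc2, a myosin light chain, and Act87E, an actin. Act87E, whose probe set carries an Affymetrix suffix for shared probes, had 14154.3 to 15848.3 on the mated arrays and 11295.0 to 18351.1 on the unmated arrays. By the same measure the brightest genes of the ovary list were the yolk protein genes Yp1, at 3447.3 to 5923.2 on the mated arrays and 6344.5 to 12586.0 on the unmated arrays, and Yp3. Yolk protein genes made up much of the summed intensity of that list, and whether their RNA came from ovary was not tested. The brightest gut markers were the protease genes Jon65Aiii, at 148.1 to 257.6 on the mated arrays and 256.5 to 653.5 on the unmated arrays, and epsilonTry. The trypsin gene betaTry held the highest gut value of any array, with 37.9, 32.9 and 23.1 on the mated arrays, against 537.1, 962.7 and 36.6 on the unmated arrays, and alphaTry had 21.8, 26.3 and 8.4 on the mated arrays, against 645.8, 737.8 and 7.2 on the unmated arrays. No marker of these 3 lists was at 0. The part of these tissues in the complex I values was not tested. The other marker lists did not share one order of arrays. Testis and sperm markers, of which 10 were measured with Mst98Ca and Mst87F the brightest, summed to 392.3 to 608.0 on the mated arrays and to 536.6 to 820.6 on the unmated arrays, with levels of 0.59, 0.04 and -0.41 on unmated arrays 1, 2 and 3. The 5 fat body markers, led by Obp99a and apolpp, summed to 1112.0 to 1216.8 on the mated arrays. On unmated arrays 1, 2 and 3 they summed to 2591.5, 2017.0 and 1173.0, so that arrays 1 and 2 were the highest, as in the ovary and gut lists. Their levels were -0.34, -0.28 and -0.32 on the mated arrays, against 0.83, 0.11 and 0.10 on the unmated arrays. The 7 haemocyte markers, led by Pxn and crq, summed to 7826.0 to 10099.0 on the mated arrays and to 9021.5 to 11369.3 on the unmated arrays, where their levels were 0.18, -0.25 and 0.16. The 4 nerve markers, led by elav and nSyb, summed to 82.3 to 134.4 on the mated arrays and to 74.5 to 106.4 on the unmated arrays, where their levels were 0.04, -0.48 and 0.16. The 3 spermatheca markers, led by Send1 and Send2, summed to 202.7 to 243.3 on the mated arrays and to 77.5 to 609.9 on the unmated arrays, where their levels were -0.29, 0.17 and -1.35. The 8 epithelial markers, led by kune and cora, summed to 5914.2 to 6256.4 on the mated arrays and to 5190.3 to 6529.0 on the unmated arrays.

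By the median SD, the subunits varied less between the arrays of a group than genes above the median level, and they differed in which array was lowest. The SD of log2 values between the mated arrays had a median of 0.17 over the 26 subunits, against 0.22 between the unmated arrays, and for all genes above the median level it was 0.36 between mated and 0.37 between unmated arrays. Mated array 1 held the lowest of the 6 values in 10 subunits, among them ND-MWFE, ND-B16.6, ND-MNLL, ND-SGDH and ND-B8. This is 38.5% of subunits, against 18.4% of all genes above the median level. Unmated array 2 held the lowest value in another 9, among them ND-51, ND-20, ND-39 and ND-B22, or 34.6% of subunits, against 787 of 5422 genes above the median level. Mated array 2 and unmated array 3 held the lowest value in 0 of 26 subunits, against 15.3% and 17.3% of all genes above the median level. These subunits were picked out after their values had been seen.

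Other genes of the pathway were read beside them, and 0 were called in any list. Of 9 listed complex I assembly factors 8 were measured, 0 passed in either direction, and the median log2 difference was 0.25, or 0.40 relative to all genes. Set against unmated array 3, these factors had a relative median of 0.06, with 4 of 8 above the all-gene median. CIA30, the fly NDUFAF1, which helps to build the membrane arm, had intensities of 357.1, 374.4 and 363.1 on the mated arrays, against 294.1, 287.1 and 261.7 on the unmated arrays. Its groups did not overlap, and here unmated array 3 was the lowest array; the log2 difference was 0.38 ± 0.29 (SE, limma adjusted p 0.858). CG17726, from the same list, had 152.9, 114.4 and 123.9 on the mated arrays, against 83.8, 86.7 and 135.2 on the unmated arrays.

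For complexes II to V, which carry the electrons on and make ATP, 29 of 35 listed nuclear genes were measured, with a median log2 difference of 0.04, or 0.20 relative to all genes, and 25 above the all-gene median. Of the 5422 genes above the median level, 3454 lay above it as well. Set against unmated array 3, the genes of complexes II to V had a relative median of -0.16, with 7 of 29 above. Their level was 0.00, 0.20 and 0.18 on the mated arrays, against -0.28, -0.35 and 0.28 on the unmated arrays, close to the levels of the complex I subunits on each array. The difference between the lists was not tested. In complex II, SdhD, a membrane anchor, had 2190.3, 2239.5 and 2840.1 on the mated arrays, against 1588.9, 1726.9 and 2013.9 on the unmated arrays, without overlap (log2 difference 0.44 ± 0.31, SE). SdhB, its iron-sulfur subunit, had a difference of 0.34 ± 0.33. In complex III the smallest p belonged to UQCR-Q and Cyt-c1, with -0.25 ± 0.35 and 0.25 ± 0.37. In complex IV, COX7C had the only unadjusted p under 0.05 (0.0272, limma adjusted p 0.736), but its intensities of 2.7 to 3.9 on the mated arrays and 4.7 to 6.8 on the unmated arrays all lay under 14.2, and COX4 had 0.30 ± 0.40. In ATP synthase, ATPsynB, a stalk subunit, had 4009.1, 4968.8 and 4402.1 on the mated arrays, against 3358.0, 3747.9 and 4003.9 on the unmated arrays, and blw, the alpha subunit, had a difference of 0.28 ± 0.33.

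For the citrate cycle, which supplies complex I with NADH, 7 of 11 listed enzymes were measured. Of these, 7 of 7 had differences above that of the median gene, as did 3454 of the 5422 genes above the median level. The citrate cycle genes had a relative median of 0.35 with all arrays and -0.33 against unmated array 3 alone. ScsbetaA and Idh3b had log2 differences of 0.21 ± 0.33 and 0.21 ± 0.41 (SE). Genes that copy, transcribe or shape mitochondria were measured in 11 of 14 cases, with 5 above and 6 below the all-gene median and a relative median of -0.09, or 0.10 against unmated array 3 alone. PolG1, the mitochondrial DNA polymerase, had 35.5, 36.1 and 13.3 on the mated arrays, against 13.3, 9.3 and 20.3 on the unmated arrays. The groups overlapped, and mated array 3 and unmated arrays 1 and 2 lay under 14.2 for this gene. PolrMT, the mitochondrial RNA polymerase, had 369.1, 229.8 and 305.2 on the mated arrays, against 427.6, 504.7 and 382.1 on the unmated arrays, with all mated values below all unmated values and a log2 difference of -0.56 ± 0.34 (SE, limma adjusted p 0.812). For 20 listed cytosolic ribosomal proteins 7 were measured, with 0 called and a relative median of 0.02, or -0.26 against unmated array 3 alone. RpS18 and RpS27A had log2 differences of -0.28 ± 0.33 and -0.24 ± 0.31 (SE).

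**Figure D5:**
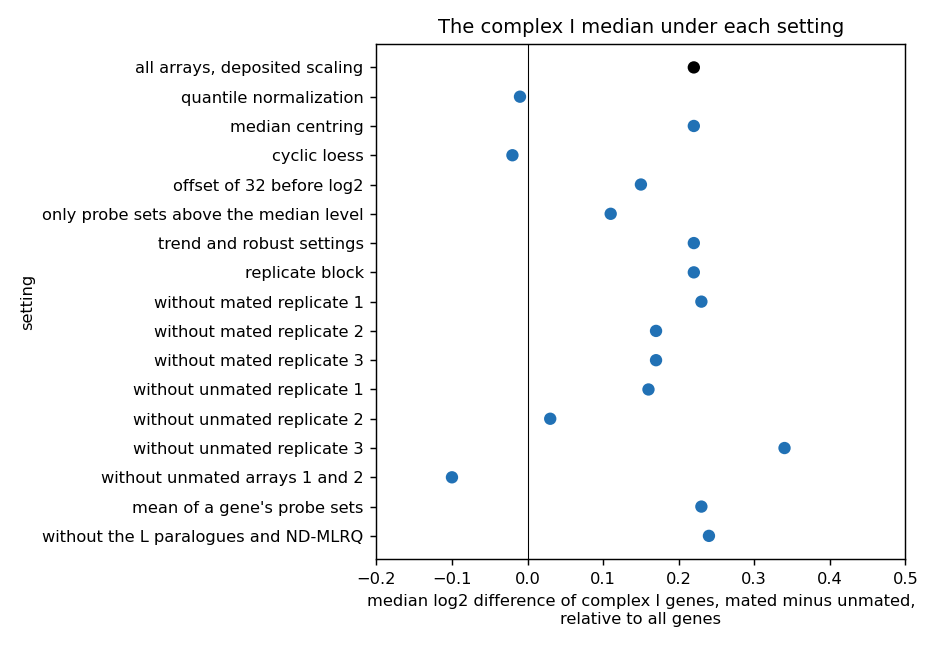
Median log2 difference of the complex I genes relative to all genes, mated minus unmated, with the deposited scaling (black) and under each alternative (blue). The value is 0.22 with all arrays, between -0.02 and -0.01 after cyclic loess and quantile normalization, and -0.10 without unmated arrays 1 and 2.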

How the data were processed

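The authors deposited 1 intensity per probe set and array on a linear scale. Per the submitters' processing notes RMA was used, with no version; the values are not on a log2 scale and the mean over the middle 96% of them is 250 on every array, so they were treated as scaled by 1 factor per array. Names came from the platform annotation, updated through Entrez identifiers against RefSeq (Release 6 plus ISO1 MT, for names only), in which 12443 of 13966 probe sets had 1 gene, 327 had several and 1196 are unnamed here; 44 control probe sets were left out. Mated and unmated arrays were compared on log2 intensity by limma 3.58.1 (lmFit, eBayes, two-sided) in R 4.3.3, with Benjamini-Hochberg adjustment over all 13966 probe sets and a threshold of 0.05. The step was tested on simulated data. The number of arrays limits the precision, and detection calls were not used here. Each SE from limma draws the variance of a gene toward a value shared by all probe sets. For ND-51, with log2 SDs of 0.07 (mated) and 0.21 (unmated), the SE was 0.30. With trend and robust settings, where the shared variance follows the level, it was 0.22.

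The complex I genes, the lists and the tests were chosen with earlier results of these data known. Genes named with all values are the core subunits, the 4 others with the smallest p, the 3 with the largest relative difference on each side and all paralogues. From each pathway list the 2 with the smallest p are named, and from each marker list the 2 brightest by mean over the 6 arrays. ND-B14.5A, ND-18, ND-19, ND-42, ND-MWFE, ND-B22, NP15.6, Mmp2, betaTry, alphaTry, Vm26Aa, Vm32E and bam are given beyond that rule, chosen after their values were seen. No pairing of arrays is stated, so the numbers were not taken as pairs. Same-numbered arrays of the groups deviated from their group means with correlations of -0.404, -0.109 and -0.299 across probe sets above the median level. Some differently numbered arrays deviated together. The correlation was 0.449 for mated array 1 with unmated array 3, and 0.424 for mated array 2 with unmated array 1. For mated array 3 with unmated array 2 it was 0.389. The cause of these likenesses was not tested. Results were recomputed with other normalizations (quantile, cyclic loess, median centring), with an offset of 32, with a filter on level, with trend and robust variance, with a replicate block, without single arrays or unmated arrays 1 and 2, without the paralogues, and with probe sets of a gene averaged. For quantile and cyclic loess, the counts of separated genes and of subunits highest on unmated array 3 were added after the data had been seen.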

Additional observations from a re-analysis of the deposited data

How the results depend on the processing

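No complex I gene passed under any of the alternatives run, and the count of called probe sets was 0 in each; at an unadjusted p of 0.05 it was 921, with 0 complex I genes. The lowest adjusted p of a named complex I gene under any alternative was 0.336, for ND-51L2 without unmated replicate 3. With trend and robust settings ND-51 had an unadjusted p of 0.056, and with an offset of 32 one of 0.0316 (limma). Without unmated replicate 3, ND-51L2 had an unadjusted p of 0.0456 (limma). The median log2 difference of the complex I genes, 0.07 with all arrays, was 0.33 after median centring, -0.01 after quantile normalization, -0.02 after cyclic loess and -0.09 without unmated arrays 1 and 2; leaving out 1 array at a time gave -0.07 to 0.08. Relative to all genes, 0.22 became -0.01 after quantile normalization, -0.02 after cyclic loess and -0.10 without unmated arrays 1 and 2, and with 1 array left out it ran from 0.03 without unmated replicate 2 to 0.34 without unmated replicate 3. The count below the all-gene median, 10, was 16 after quantile normalization, 18 after cyclic loess and 20 without unmated arrays 1 and 2, with 8 to 15 when 1 array was left out. The cause of these moves was not tested. Without unmated arrays 1 and 2 the sign turned for ND-B8 (0.09), ND-24L (0.22), ND-ASHI (-0.06), ND-PDSW (-0.09), ND-39 (-0.25) and ND-51L1 (0.98). With 1 array left out ND-51L1 ran from -0.89 to 0.30, the upper value without unmated replicate 1, and ND-B14.5AL from -0.64 to 0.04, the upper value without mated replicate 3. The same omissions gave -1.83 to -0.40 for ND-B8 (mated replicates 2 and 1 left out), 0.35 to 1.06 for ND-20L (mated replicate 2, unmated replicate 2), -0.72 to -0.16 for ND-24L (unmated replicate 3, mated replicate 3), 0.15 to 0.57 for ND-39, 0.14 to 0.59 for ND-PDSW (unmated replicates 2 and 3 for both), 0.22 to 0.58 for ND-ASHI (unmated replicates 1 and 3), -0.49 to -0.21 for ND-B17.2 (unmated replicates 2 and 1) and 0.07 to 0.23 for ND-20 (unmated replicate 2, mated replicate 1). For ND-51, ND-75, ND-ACP and ND-51L2 they gave 0.41 to 0.60, 0.25 to 0.43, -0.42 to -0.22 and -0.84 to -0.44. With the replicate block the median stayed at 0.07 and the relative median at 0.22, with 0 calls, so the block changed no call.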
